A study of Mus musculus with 13 samples.

Results

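The homeodomain factors outside the Hox clusters were examined in sympathetic ganglia of a mouse model of neuroblastoma. Members were genes whose symbol on the array has the stem of Lhx4, Pax5, Irx4, Six2, Dlx5, Meis2, Pbx3 or Prox1 followed by digits only, or starts with Nkx or Pou and a digit. This gave 68 of the 21893 genes compared. The 68 fell into 10 families, and the choice used symbols only. The RNA was that of coeliac and superior cervical ganglia, taken at the age of 2 weeks. The 6 TH-MYCN+/+ samples came from animals homozygous for a transgene in which a tyrosine hydroxylase promoter drives human MYCN, so the transgene acts in catecholaminergic cells. The 7 wild-type samples came from littermates of the same age, and the question was what differs between the genotypes. Every sample had 1 array, read in a single colour on an Agilent platform, so precision rests on 6 and 7 arrays. Nothing in the labels tells whether a sample is 1 animal or a pool, or how the ganglia were combined, and the p-values hold for the spread among samples, part of which can be technical.

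A homeodomain is a DNA-binding fold of helices, and proteins that carry it set regional and cell-type identity in the embryo. TALE factors (Meis, Pbx and Irx) bear an extra loop in that fold, and Meis and Pbx bind DNA jointly with each other and with other homeodomain proteins. LIM-homeodomain proteins (Lhx) work through the adaptor Ldb1. Six2 and its relatives act through Eya coactivators, and POU proteins carry a further DNA-binding domain. The symbol rule also admitted a few genes that are not homeodomain factors in the strict sense: Pou2af1 is a coactivator of B cells, Pax1 and Pax9 carry a paired domain without a homeodomain, and Pou5f1-rs4 is listed as a pseudogene in RefSeq.

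Sympathetic identity of the tissue was plain on the arrays: the 12 measured sympathetic neuron markers were above background on every array, with a mean between 13.38 and 14.84 on the normalized log2 scale. That mean was lower in TH-MYCN+/+ (13.38 to 14.15) than in wild-type ganglia (14.61 to 14.84). Of these markers 10 were called lower and 1 higher, and 5 lower and 1 higher after scaling to spike-in probes. Markers of other cells moved with genotype too, where 18.9% of all genes were called higher and 34.3% lower. After quantile normalization 8 of 9 Schwann and satellite glia markers, 10 of 10 fibroblast markers and 8 of 8 endothelial markers were lower in TH-MYCN+/+, and 6 of 7 cell division genes were higher. With scaling to spike-in probes instead, only 6 glia, 6 fibroblast and 1 endothelial marker were called lower. In ganglia measured whole, fewer cells of a type and less RNA per cell cannot be told apart. A total of 4 arrays carried markers of neighbouring tissue more than 2 log2 units above the median array. These were wild-type replicate 3 and TH-MYCN+/+ replicate 5 (B-cell markers), TH-MYCN+/+ replicate 6 (skeletal muscle) and wild-type replicate 1 (adrenal cortex). Leaving out these 4, which are 2 of each genotype, gave 13 members called higher and 5 lower. Over all genes it gave 3736 higher and 6800 lower.

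Start sites of these genes were rich in CpG dinucleotides. RefSeq promoter windows (GRCm38.p6) matched 51 of the 68 members, and some genes had several windows. Over the 250 bases before the start site, the 62 windows of members held a median of 14 CpG, against 6 over all 32851 windows in the table. The 15 windows of members called higher held a median of 14 CpG and the 39 of members not called a median of 15. The 8 windows of members called lower, from 7 genes, held a median of 6.5 (range 1 to 24). These medians were not compared by a test. The windows of 4 members with large rises are shown 5′ to 3′ with each CpG in capitals, since they span the range among members called higher: Meis2 held 7, Lhx4 14, Prox1 20 and Nkx6-1 30.

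Meis2 (chr2:116064620-116064869, minus strand): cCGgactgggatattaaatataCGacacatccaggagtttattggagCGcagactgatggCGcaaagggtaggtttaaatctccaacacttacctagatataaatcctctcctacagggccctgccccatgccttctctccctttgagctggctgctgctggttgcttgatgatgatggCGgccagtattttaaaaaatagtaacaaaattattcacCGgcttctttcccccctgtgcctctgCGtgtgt
Prox1 (chr1:190170828-190171077, minus strand): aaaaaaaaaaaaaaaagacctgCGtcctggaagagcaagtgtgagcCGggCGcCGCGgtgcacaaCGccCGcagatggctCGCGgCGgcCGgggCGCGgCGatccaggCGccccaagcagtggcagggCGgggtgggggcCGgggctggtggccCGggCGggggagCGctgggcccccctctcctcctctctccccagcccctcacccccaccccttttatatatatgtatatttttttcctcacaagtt
Lhx4 (chr1:155742028-155742277, minus strand): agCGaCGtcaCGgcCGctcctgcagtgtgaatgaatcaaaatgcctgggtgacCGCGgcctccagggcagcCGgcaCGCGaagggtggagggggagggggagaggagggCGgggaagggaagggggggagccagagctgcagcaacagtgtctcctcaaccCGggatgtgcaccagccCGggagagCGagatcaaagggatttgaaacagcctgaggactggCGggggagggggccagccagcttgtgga
Nkx6-1 (chr5:101664712-101664961, minus strand): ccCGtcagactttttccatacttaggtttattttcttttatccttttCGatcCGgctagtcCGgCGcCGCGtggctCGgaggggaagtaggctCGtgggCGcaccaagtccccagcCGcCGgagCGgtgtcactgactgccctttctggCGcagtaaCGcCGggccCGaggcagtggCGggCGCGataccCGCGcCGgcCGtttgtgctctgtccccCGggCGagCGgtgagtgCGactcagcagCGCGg

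The canonical E-box, the palindrome CACGTG that Myc family proteins are known to bind, was searched in the same windows. It occurred in 4 of 62 windows of members (6.45%) and in 6.02% of all windows. The members holding it were Dlx2, Nkx1-1, Nkx1-2 and Nkx2-2. Dlx2, called lower, held it at 2 places, shown in capitals in its window.

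Dlx2 (chr2:71546755-71547004, minus strand): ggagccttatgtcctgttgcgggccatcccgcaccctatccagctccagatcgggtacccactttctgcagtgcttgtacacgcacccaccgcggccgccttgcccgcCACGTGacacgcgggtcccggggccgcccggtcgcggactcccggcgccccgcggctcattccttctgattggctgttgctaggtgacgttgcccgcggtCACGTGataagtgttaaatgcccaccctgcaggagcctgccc

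The homeodomain core TAATTA, also a palindrome, was found in none of the 62 windows and in 4.84% of all windows. The Meis site TGACAG, on either strand, was found in 12 of the 62 (19.4%) and in 15.9% of all windows, Six2 and Six5 included. A match or its absence describes these letters in this window and says nothing about binding.

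Most members were dim. With background taken as the 95th percentile of each array's ERCC control probes, 19 members were below it on all 13 arrays and 19 were above it on all 13. A further 14 were below it on every TH-MYCN+/+ array and 6 on every wild-type array. Over all 21893 genes the counts in the same order were 4001, 14243, 1347 and 366. At an adjusted p under 0.05, 16 members were higher and 8 were lower in TH-MYCN+/+ ganglia, so 24 of 68 were called, against 53.2% of all genes. Over all genes 18.9% were called higher and 34.3% lower, where members stood at 23.5% and 11.8%. The median log2 fold change was 0.04 over the 68 members and -0.15 over all genes. The genotypes did not overlap for 11 members that were higher (12.3% of all genes) and 3 that were lower (23.1% of all genes). With a log2 change of at least 1 as a further condition, 14 members were higher (7.95% of all genes) and 4 lower (15% of all genes). Of the 15947 genes above background on 6 or more arrays 24.5% were higher and 44.1% lower, and of the 27 members among them 13 were higher and 4 lower. A gene can pass that filter through the genotype in which it is high, so nothing is read from this count. Counts of falls depend on the scaling between arrays: 18 members were called lower after median centring, 3 in the values as deposited and 0 after scaling to the spike-in probes. The 16 rises were also called with both of these last settings, which gave 21 and 22 in all, while the count over all genes went from 4136 to 5521 and 5675.

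**Figure D1:**
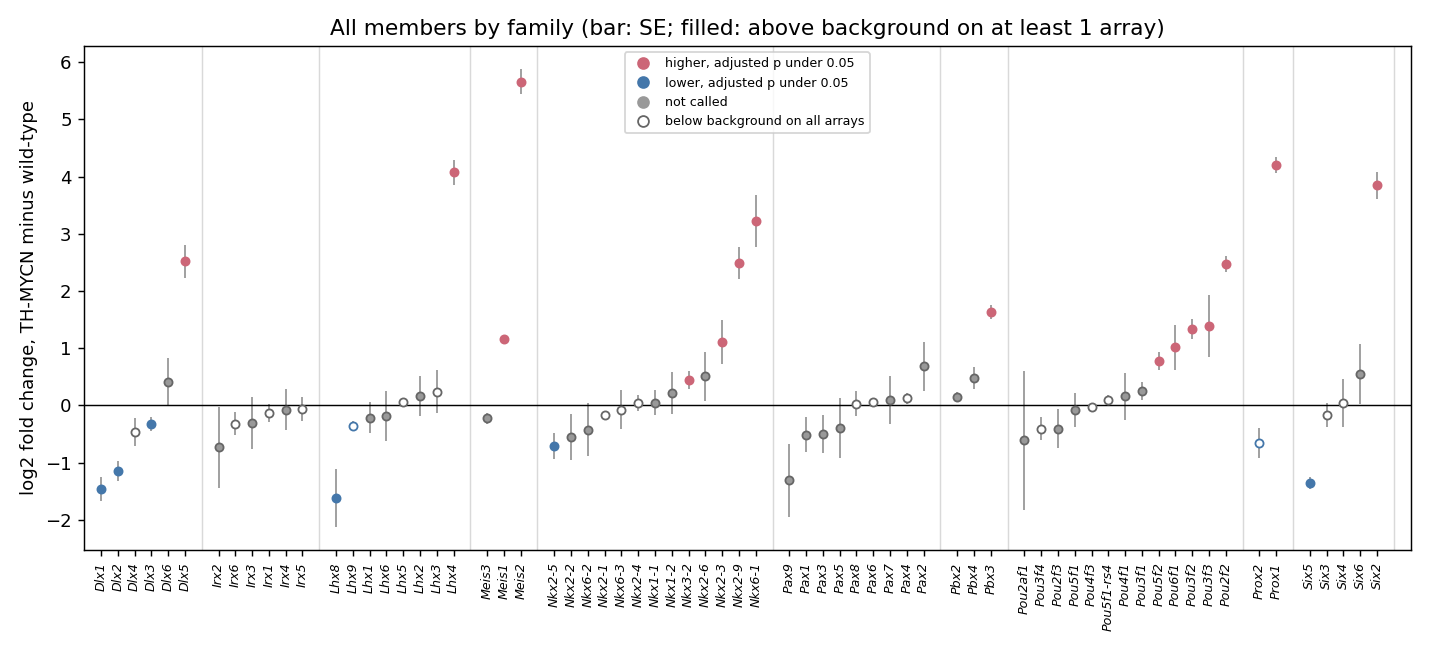
Log2 fold change (vertical axis, TH-MYCN+/+ minus wild type) with its SE for each of the 68 members, ordered by family. Red points were called higher, blue points lower, grey points were not called, and open points were below background on all arrays. Meis2 stands highest at 5.66, and no Irx or Pax gene was called.

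Meis2 had the largest rise of the members above background on all arrays, and the TALE genes related to it differed in size of change. Meis2 lay between 6.30 and 7.28 (median 6.74) on wild-type arrays and between 11.61 and 13.06 (median 12.54) on TH-MYCN+/+ arrays. The groups were far apart, with every array of both genotypes above background. The log2 fold change was 5.66 ± 0.22 (SE, adjusted p = 1.07e-09), or 50.5-fold. Meis1, a leukaemia-associated factor that partners Pbx and Hox proteins, was bright in both genotypes, at 12.18 to 12.56 (median 12.41) in wild type and 13.36 to 13.65 (median 13.52) in TH-MYCN+/+. Its ranges did not overlap, and it rose 2.23-fold (adjusted p = 1.93e-07). Meis3 spanned 10.002 to 10.50 in wild type and 9.77 to 10.15 in TH-MYCN+/+ arrays, which overlapped, with a log2 difference of -0.22 (adjusted p = 0.0579). That value was positive in the deposited values (0.13) and after spike-in scaling (0.29). A second Meis3 probe was called lower, at -0.32 (adjusted p = 0.000645).

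Pbx3, a nuclear partner of Meis and Hox proteins, went from 8.60 to 8.96 (median 8.76) in wild type to between 10.06 and 10.78 (median 10.35) in TH-MYCN+/+. The groups were separate, the rise was 3.10-fold (adjusted p = 2.34e-07), and its second probe rose too, by 1.53 on the log2 scale. Pbx2 lay at 9.43 to 9.71 in wild type and 9.50 to 9.98 in TH-MYCN+/+, a difference of 0.15 that was not called (adjusted p = 0.142). Pbx4, known for its role in the testis, lay between 3.56 and 5.01 over all arrays, with a log2 difference of 0.47 (adjusted p = 0.0537). It was called higher in 7 of the 23 alternative settings run. These included the deposited values, spike-in scaling, centring on the 75th percentile and 3 of the 13 fits that left out 1 array.

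Whether paralogues changed by different amounts was tested on their difference within each array, which a constant shift of an array does not alter. All 10 pairs of a family, or of a POU or Nkx class, with both genes above background on every array were compared by an exact two-sided permutation over the 1716 splits, where the smallest p is 0.000583, with adjustment over the 10. The change of Meis1 minus that of Meis2 was -4.58 (95% interval -5.09 to -4.07, exact permutation, adjusted p = 0.00117). For Meis2 minus Meis3 it was 5.94 (5.33 to 6.54) and for Meis1 minus Meis3 it was 1.36 (1.10 to 1.61), each with an exact permutation adjusted p of 0.00117. All 3 Meis genes thus changed by unequal amounts. Among Pbx genes, Pbx2 minus Pbx3 gave -1.47 (-1.67 to -1.27) and Pbx3 minus Pbx4 gave 0.95 (0.56 to 1.34), each with an exact permutation adjusted p of 0.00117. Pbx2 minus Pbx4 gave -0.52 (-0.89 to -0.15, exact permutation, adjusted p = 0.0117).

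**Figure D2:**
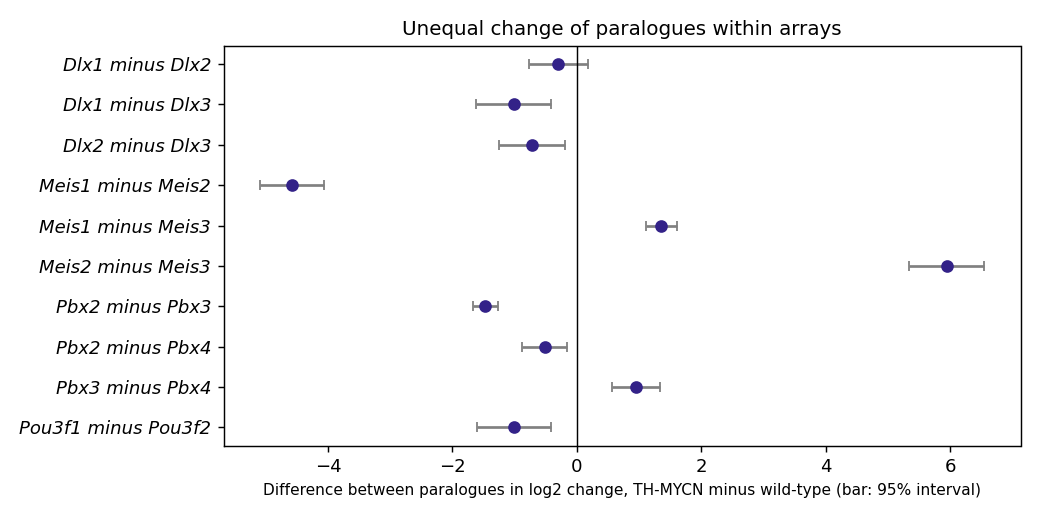
Difference between paralogues in their log2 change between genotypes (horizontal axis) for the 10 pairs above background on all arrays. Points are the difference in means of the within-array difference and bars its 95% interval. The interval of Dlx1 against Dlx2 includes 0, and Meis2 against Meis3 is the largest at 5.94.

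Prox1, a prospero factor that promotes the exit of neural progenitors from division and specifies lymphatic endothelium, rose as well. It lay between 4.61 and 5.35 (median 5.01) in wild type and between 8.96 and 9.56 (median 9.21) in TH-MYCN+/+. All TH-MYCN+/+ arrays were well clear of all wild-type arrays, and the rise was 18.5-fold (log2 fold change 4.21 ± 0.14 SE, adjusted p = 3.67e-10). Of 5 lymphatic endothelial markers Pdpn was called higher and Reln lower. Lyve1 stood at a mean of 3.66 in TH-MYCN+/+ against 5.24 in wild type (not called), and Flt4 was below background on all arrays. The mean of the list ranged from 3.998 to 5.92 in TH-MYCN+/+ and from 5.40 to 6.90 in wild type. Prox2, its paralogue, was below background on all arrays, so its nominal call as lower carries no fold change.

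Of the 8 Lhx genes 1 was called higher and 2 lower (18.9% and 34.3% of all genes). Lhx4, which acts in pituitary and motor neuron development, was below background on all 7 wild-type arrays (0.63 to 0.65, median 0.64) and above it on all 6 TH-MYCN+/+ arrays (3.98 to 5.54, median 4.53). It was at least 3.37-fold higher (adjusted p = 1.38e-08). Such a bound replaces each value in the dimmer genotype that lies under the lowest signal above background on its array by that signal. The bound itself was not tested. An adjusted p given beside a bound is that of the difference with values under background kept as they are. Lhx8, a factor of cholinergic forebrain neurons, was above background on 4 of 7 wild-type arrays and on no TH-MYCN+/+ array, and was called lower (adjusted p = 0.0160). Its wild-type values ran from 0.97 to 5.03 and its TH-MYCN+/+ values from 0.996 to 2.68, so the groups overlapped and no fold is given, and the call was lost as deposited and after spike-in scaling. Lhx9, called lower as well, was below background on all arrays. Lhx1, Lhx2, Lhx3 and Lhx5 were above background on 4 arrays, 1 array, 0 arrays and 0 arrays of 13.

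Lhx6, a factor of cortical interneurons and jaw mesenchyme, was above background on all arrays by its leading probe and varied widely within each genotype (SD 0.76 in wild type, n = 7, and 0.91 in TH-MYCN+/+, n = 6). That probe spanned 10.10 to 12.51 (median 11.28) in wild type and 9.84 to 12.48 (median 10.97) in TH-MYCN+/+. The ranges overlapped almost wholly and the difference was -0.19 ± 0.43 (SE, adjusted p = 0.748). A second Lhx6 probe was below background on all arrays and the other was above it on 5 wild-type arrays and 1 TH-MYCN+/+ array. The probes therefore disagree on whether the gene is expressed, and its level is uncertain.

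A list of 14 genes held cofactors of LIM proteins and the related LIM-homeodomain genes Isl1, Isl2, Lmx1a and Lmx1b. In it 9 rose and 1 fell (18.9% and 34.3% of all genes), with a median log2 fold change of 0.39. After spike-in scaling 9 rose and none fell, while of all 21893 genes 5675 were higher and 1579 lower. Lmo3, a LIM-only protein, lay between 4.59 and 6.07 in wild type and between 9.35 and 10.36 in TH-MYCN+/+, a log2 rise of 4.34 ± 0.25 (SE, adjusted p = 2.73e-08). The adaptors Ldb1 and Ldb2 rose 2.29-fold and 3.41-fold, and Isl1, the LIM-homeodomain factor of sympathetic and sensory neurons, rose by 0.93 on the log2 scale (adjusted p = 1.11e-05). Lmo2, an adaptor of blood and endothelial cells, was the gene that fell, by 0.73. That fall was not called after spike-in scaling.

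Six2 rose and Six5 fell. Six2, which maintains progenitors in the developing kidney, was below background on every wild-type array (0.74 to 1.05, median 0.84) and above it on every TH-MYCN+/+ array (3.99 to 5.55, median 4.68). It was at least 3.31-fold higher (adjusted p = 4.48e-08). The other Six2 probes did not show this, since one was above background on no array and the other on 1 TH-MYCN+/+ array. With all probes averaged the log2 difference was 1.39 in place of 3.85. Of 7 kidney markers none was called higher, and Slc12a3 was called lower (adjusted p = 0.0172). Slc12a1 and Nphs1 were below background on all arrays, Umod and Slc12a3 were each above it on 1, and Aqp2 on all 13. Slc34a1 and Kap were each above it on 2 TH-MYCN+/+ and 6 wild-type arrays. The mean over the list was 1.97 to 2.39 in TH-MYCN+/+ and 2.25 to 3.15 in wild type. After spike-in scaling 1 of the 7 was called higher. Six5, which in humans lies next to the myotonic dystrophy kinase gene, lay between 7.90 and 8.34 (median 8.10) in wild type and between 6.46 and 7.05 (median 6.71) in TH-MYCN+/+. It fell by 1.35 on the log2 scale, or 2.55-fold (SE 0.10, adjusted p = 3.87e-07). After spike-in scaling it fell by 0.71 with a larger SE of 0.27 and missed the threshold (adjusted p = 0.0506). Six3 and Six4 were below background on all arrays and Six6 was above it on 1.

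Partners of Six2 and its relatives moved in both directions. Of 9 genes 5 rose and 2 fell (18.9% and 34.3% of all genes), with a median of 0.30. After spike-in scaling 5 rose and 1 fell. Eya4, a coactivator with phosphatase activity, rose by 3.36 ± 0.35 (SE, adjusted p = 5.14e-06), from a range of 3.63 to 6.12 to one of 8.09 to 9.10. Eya2, of the same family, fell by 1.39 (adjusted p = 0.000151), and its values of 9.001 to 10.09 in wild type lay above those of 7.48 to 8.80 in TH-MYCN+/+. The corepressor Dach1 rose by 1.52 (adjusted p = 3.12e-06). Dach2, its relative, was above background on 2 of 7 wild-type and all 6 TH-MYCN+/+ arrays and was at least 2.63-fold higher (adjusted p = 0.000195).

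The Dlx genes, which pattern the face and drive interneuron identity in the forebrain, moved in both directions. Dlx1 lay between 5.46 and 6.58 (median 6.23) in wild type and between 4.30 and 5.26 (median 4.52) in TH-MYCN+/+. Dlx2 lay between 5.81 and 6.84 (median 6.51) in wild type and between 4.98 and 5.73 (median 5.13) in TH-MYCN+/+. Neither gene's groups overlapped, and all arrays were above background. Dlx1 fell by 1.46 ± 0.21 (SE, adjusted p = 5.86e-05) and Dlx2 fell by 1.15 ± 0.18 (SE, adjusted p = 9.97e-05). A second Dlx1 probe was below background on all arrays, and with both averaged Dlx1 fell by 0.88. With spike-in scaling Dlx1 fell by 0.75 and Dlx2 fell by 0.45, and neither passed (adjusted p = 0.0675 and 0.313). The change of Dlx1 minus that of Dlx2 was -0.30, with a 95% interval of -0.77 to 0.18 that includes 0 (exact permutation, adjusted p = 0.199). The lower glial, fibroblast and endothelial markers given above moved with these falls and that of Six5, and their part in them was not tested.

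Dlx5, a factor of bone and interneuron development, ran the other way. It stood at 1.68 to 3.88 (median 3.20) in wild type, above background on 3 of 7 arrays, and at 5.40 to 5.84 (median 5.61) on the 6 TH-MYCN+/+ arrays, all above background. The groups did not overlap, and the gene was at least 4.82-fold higher (adjusted p = 1.08e-05). Dlx3, known from skin and teeth, lay at 8.52 to 9.17 in wild type and 8.21 to 8.90 in TH-MYCN+/+, overlapping ranges with a difference of -0.32 (adjusted p = 0.0494). This call ended in 11 of the 13 fits that each left out 1 array, and the difference was positive in the deposited values (0.11) and after spike-in scaling (0.27). The changes of Dlx1 and Dlx2 minus that of Dlx3 were -1.02 and -0.72 (exact permutation, adjusted p = 0.00916 and 0.0201).

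**Figure D3:**
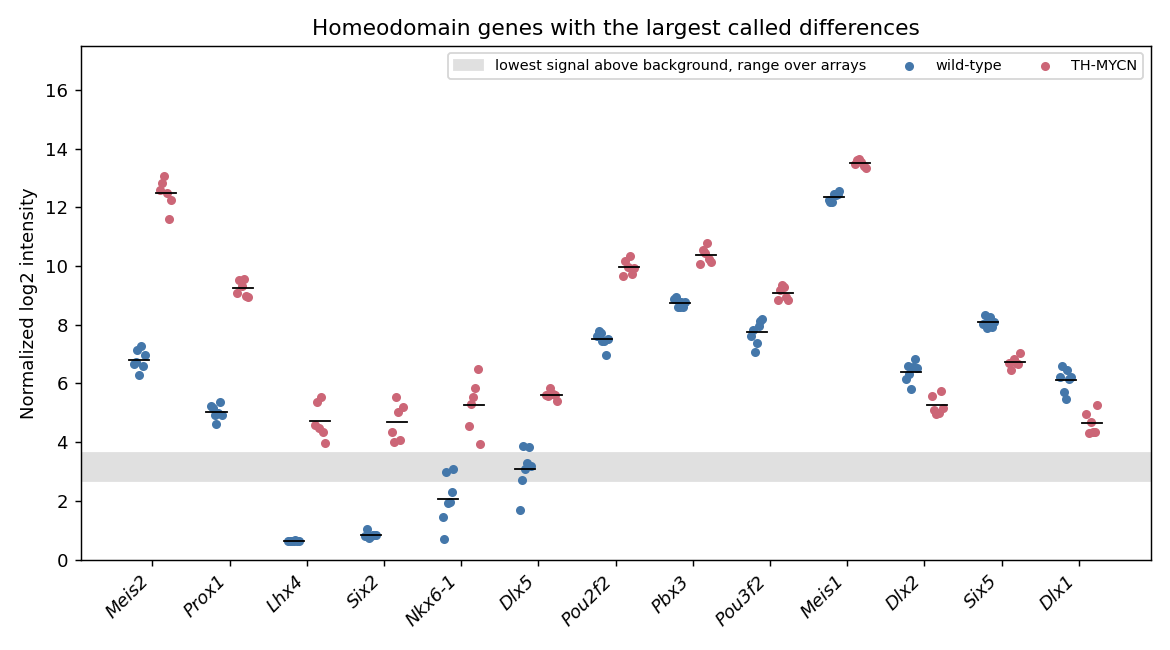
Normalized log2 intensity (vertical axis) on each array for the 13 members that were called with a log2 change of at least 1 and above background on every array of a genotype. Blue points are the 7 wild-type arrays, red points the 6 TH-MYCN+/+ arrays, black bars the means, and the grey band the range over arrays of the lowest signal above background. Wild-type values of Lhx4 and Six2 lie beneath the band, and no gene shows overlap between genotypes.

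POU factors that were measurable rose or did not pass the test. Pou2f2, an octamer-binding factor of B cells that neurons also express, lay between 6.97 and 7.79 (median 7.50) in wild type and between 9.66 and 10.34 (median 9.94) in TH-MYCN+/+. The groups were separate, the rise was 5.53-fold (log2 fold change 2.47 ± 0.14 SE, adjusted p = 3.03e-08), and the second probe rose by 2.44. Pou3f2, a factor of migrating and differentiating neurons, lay between 7.07 and 8.21 (median 7.83) in wild type and between 8.86 and 9.35 (median 9.06) in TH-MYCN+/+. It rose 2.53-fold (adjusted p = 3.65e-05), and its other probes rose by 2.02 and 2.41 on the log2 scale. Pou3f1, which Schwann cells use on the way to myelination, spanned 6.41 to 7.27 in wild type and 6.90 to 7.76 in TH-MYCN+/+, an overlap with a difference of 0.25 (adjusted p = 0.225). It was called higher as deposited and after spike-in scaling. The change of Pou3f1 minus that of Pou3f2 was -1.02 (95% interval -1.61 to -0.42, exact permutation, adjusted p = 0.00680).

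Pou5f2, a relative of the pluripotency factor Pou5f1 known from the testis, was at 8.14 to 9.11 in wild type and 9.03 to 9.45 in TH-MYCN+/+, which overlapped in part. It rose by 0.78 ± 0.15 (SE, adjusted p = 0.000798). Pou6f1, a brain-expressed factor, was above background on 3 arrays of each genotype and was called higher (adjusted p = 0.0429), a call that ended in 9 of the 13 fits that left out 1 array. Pou3f3 was called higher (adjusted p = 0.0451), a call lost after median centring and after centring on the 75th percentile. It was above background on 1 TH-MYCN+/+ array and no wild-type array. Pou5f1 was above it on 1 wild-type array, and the sensory neuron factors Pou4f1 and Pou4f3 on 2 and 0 arrays.

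Genes of B cells were read on the arrays beside B-cell markers. Pou2af1, the B-cell coactivator, was at 9.72 on wild-type replicate 3 and at 6.54 on TH-MYCN+/+ replicate 5, where the other arrays held 1.07 to 3.64. Pax5, the B-cell identity factor, reached 4.24 on wild-type replicate 3 and was below background elsewhere. These are the arrays on which the mean of 7 B-cell markers was highest, at 8.86 and 6.61, while the others held 3.71 to 4.84. Neither gene was called (adjusted p = 0.703 and 0.562). Pou2f2 stood at 7.72 and 9.74 on those arrays, inside the range of its genotype on the other arrays. Of the 7 B-cell markers Ebf1 was called higher and none lower.

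**Figure D4:**
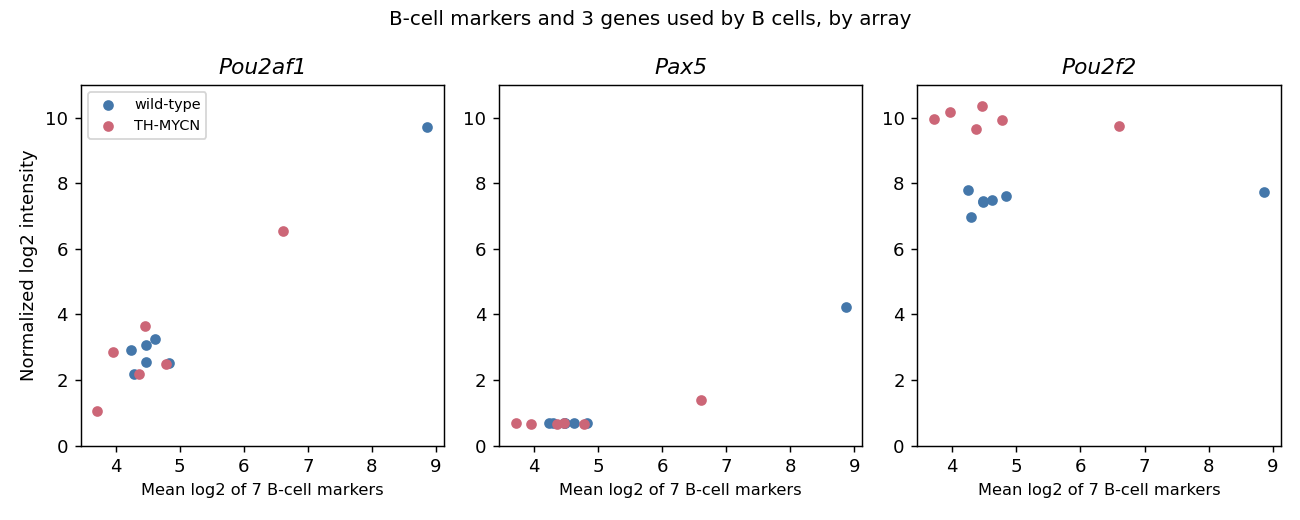
Normalized log2 intensity (vertical axes) of Pou2af1, Pax5 and Pou2f2 against the mean of 7 B-cell markers (horizontal axes) on each of the 13 arrays, blue for wild type and red for TH-MYCN+/+. Pou2af1 and Pax5 are highest on the array with the highest marker mean, 8.86, and Pou2f2 separates by genotype.

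Of 13 Nkx genes 4 were called higher and 1 lower (18.9% and 34.3% of all genes). Nkx6-1, a factor of ventral neural tube progenitors and pancreatic beta cells, stood at 0.72 to 3.08 (median 1.96) in wild type, above background on 2 of 7 arrays, and at 3.95 to 6.49 (median 5.42) in TH-MYCN+/+, above it on all 6. The groups did not overlap, and it was at least 4.70-fold higher (adjusted p = 4.78e-05). Of 7 pancreas markers none was called higher and 2 lower, and Ins2 stood at a mean of 5.31 against 5.09 in wild type (adjusted p = 0.107). After spike-in scaling 2 of the 7 were called higher. Nkx2-9, a floor plate gene, was below background in wild type and above it on 3 of 6 TH-MYCN+/+ arrays. It was called higher (adjusted p = 8.88e-06, with values under background kept), and its untested bound was 1.20-fold. Nkx3-2, a repressor of skeletal development, was above background on all arrays and rose by 0.44 (adjusted p = 0.0342), a call lost in 7 of the 13 fits that left out 1 array.

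The remaining Nkx genes were dim or overlapped between genotypes. Nkx2-3 was above background on 2 TH-MYCN+/+ arrays and on no wild-type array (called higher, adjusted p = 0.0259, a call lost without the 4 arrays with markers of neighbouring tissue). Nkx2-5, the cardiac factor, was above it on 5 wild-type arrays and no TH-MYCN+/+ array, with overlapping values (called lower, adjusted p = 0.0190). Its call was lost without those 4 arrays, as deposited and after spike-in scaling. Nkx2-2, of oligodendrocytes and ventral neurons, was above background on all arrays, at 4.35 to 5.999 in wild type and 3.75 to 5.73 in TH-MYCN+/+, with a difference of -0.55 (adjusted p = 0.279). Nkx1-1 stood at 3.88 to 5.47 in wild type and 4.45 to 5.02 in TH-MYCN+/+ (difference 0.05, adjusted p = 0.870), and 1 of its other probes was called higher. Nkx2-6 was above background on 4 of 7 wild-type and 6 of 6 TH-MYCN+/+ arrays, with a difference of 0.51 (adjusted p = 0.353).

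No Pax or Irx gene was called, where 53.2% of all genes were. Of the 9 Pax genes, Pax9 was above background on all 7 wild-type arrays (2.94 to 4.12) and on 1 of 6 TH-MYCN+/+ arrays. TH-MYCN+/+ replicate 3 stood at 5.71 while the other 5 held 0.80 to 2.08. The difference of -1.31 was not called (adjusted p = 0.105), and without that array it was -2.00 (adjusted p = 2.31e-05). That fit is 1 of the 13 that each left out 1 array, given because this array stood apart. The other 5 TH-MYCN+/+ arrays were below background, so neither difference is read as a fold change. A second Pax9 probe was below background on all arrays. Pax3, of neural crest and muscle progenitors, was above background on 2 wild-type arrays, and Pax4, Pax6 and Pax8 were below it on all arrays. Of the 6 Irx genes, Irx4 was above background on 11 of 13 arrays, with a difference of -0.07 (adjusted p = 0.887). Irx3 was above it on 5 arrays, Irx2 on 1, and Irx1, Irx5 and Irx6 on none.

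Many members sit beside another member on their chromosome, and the neighbours differed in whether they were measured and how they moved. With neighbours taken as members less than 1 Mb apart in RefSeq GRCm38.p6, 24 members formed 10 groups. Dlx1 and Dlx2, on chromosome 2, both fell. Dlx5, on chromosome 6, rose while its neighbour Dlx6 was above background on 1 wild-type array. Six2, on chromosome 17, rose next to Six3, which was below background on all arrays. On chromosome 12, Nkx2-9 was called higher between Nkx2-1, below background on all arrays, and Pax9, above it on 7 wild-type and 1 TH-MYCN+/+ arrays. The Irx groups on chromosomes 8 and 13 held no called gene. The other groups were Dlx3 with Dlx4, Six4 with Six6, Nkx2-4 with Nkx2-2 and Pax1, and Pbx2 with Pou5f1.

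Other proteins that act with these families were described from lists, beside which 18.9% of all genes were called higher and 34.3% lower. Of 7 further TALE factors and binding proteins 5 rose and 2 fell, with a median of 0.76, and 5 rose and none fell after spike-in scaling. Tgif1, a TALE repressor, rose by 1.70 (adjusted p = 8.57e-07) and Pknox1, a Meis-related partner of Pbx, by 1.26 (adjusted p = 2.72e-06), while Pbxip1, a cytoplasmic binder of Pbx, fell by 1.03 (adjusted p = 1.51e-05). Geminin, Gmnn, which restrains replication licensing and binds Six3, rose by 2.44, and cell division genes were higher too. All 6 measured Pax partners but Hipk1 rose, with a median of 0.80, and Hipk2, a homeodomain-interacting kinase, rose by 2.58 (adjusted p = 1.30e-08). Paxip1, Paxbp1 and Daxx rose by 1.15, 0.90 and 0.69. In a list of 6 genes, 5 Groucho corepressors and Hes1, 4 fell and 1 rose, with a median of -0.60. Tle1 rose by 1.06, Tle6 fell by 1.52, Tle2 fell by 0.65 and Tle4 fell by 0.54, and after spike-in scaling 1 rose and 1 fell.

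Homeodomain genes known in sympathetic neurons, with other classes, formed a list of 19 genes. In it 9 rose and 6 fell (18.9% and 34.3% of all genes), with a median of 0.00. After spike-in scaling 9 rose and 3 fell. Prrxl1, counted among those that rose, was below background on all arrays and carries no fold change. Onecut2, a CUT-homeodomain factor, rose by 2.70 ± 0.11 (SE, adjusted p = 9.05e-10). Hmx2, of neurons and the inner ear, was above background on 4 of 7 wild-type and all 6 TH-MYCN+/+ arrays and at least 14.5-fold higher (adjusted p = 6.43e-06). Zfhx4 and Zeb2, zinc finger homeodomain proteins, fell by 1.56 each (adjusted p = 9.71e-07 and 1.48e-06). Phox2a, which specifies the noradrenergic fate, lay between 15.23 and 15.64 in wild type and between 14.30 and 15.16 in TH-MYCN+/+ arrays. It fell by 0.63 (adjusted p = 0.000545). Whether Phox2a, Zfhx4 and Zeb2 were among the 3 genes called lower after spike-in scaling is not given here.

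**Figure D5:**
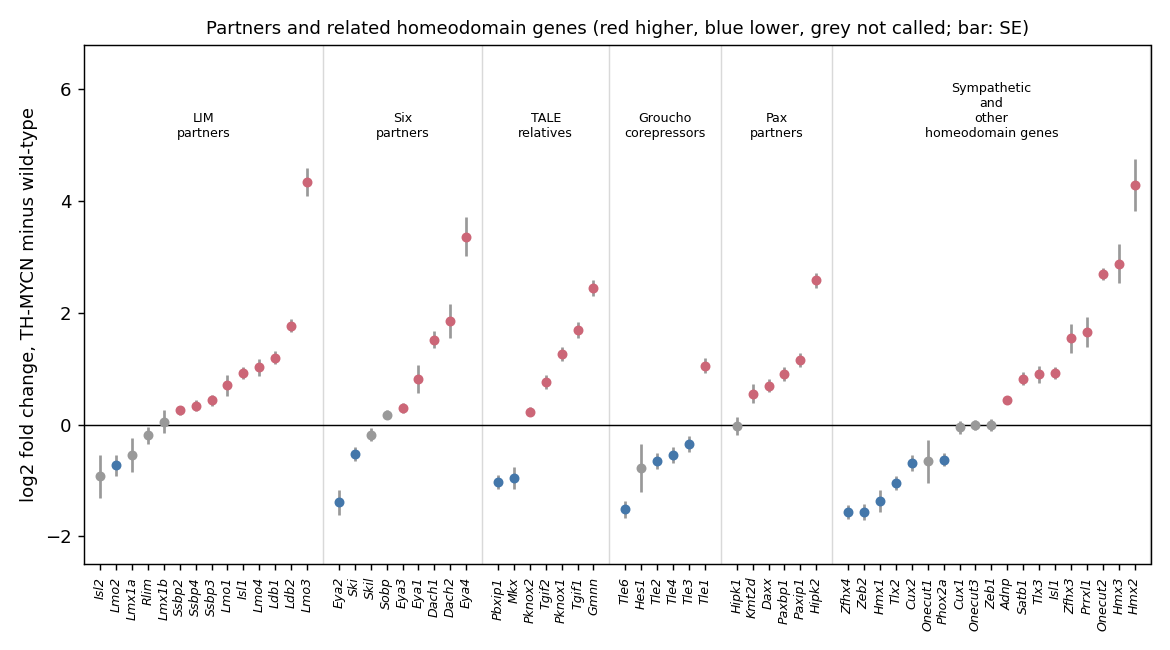
Log2 fold change (vertical axis, TH-MYCN+/+ minus wild type) with its SE for partner proteins and related homeodomain genes in 6 lists. Red points were called higher, blue points lower and grey points were not called. Lmo3 has the largest rise among LIM partners at 4.34, and 5 of 6 genes in the Groucho list lie beneath 0.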

How the data were processed

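Total RNA of 13 samples was labelled with Cy3 and hybridised to 1-colour Agilent arrays, per the labels. The authors' deposited values were taken to be log2 intensities, an inference from array maxima of 18.1 to 18.6 because no base is stated. Medians of the arrays differed, so these log2 values carried no scaling to a common median. The medians separated by genotype, at 4.58 to 5.07 on TH-MYCN+/+ and 3.94 to 4.50 on wild-type arrays. The source of that offset was not tested. Neither scanner software nor background correction is named in the labels. Of 55821 probes, 30626 carried 1 symbol in the platform annotation, 140 were controls, and the brightest probe on average stood for its gene; 20 members had several.

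Array probes were quantile normalized. Genotypes were compared by limma 3.58.1 (R 4.3.3), with 1 factor, over all 21893 genes, two-sided, with Benjamini-Hochberg adjustment, and calls were made at 0.05; 12574 genes had an unadjusted p under 0.05. Background was the 95th percentile of 96 ERCC probes. It lay between 2.88 and 3.99 on TH-MYCN+/+ and 2.16 and 3.56 on wild-type arrays, which bears on counts of arrays above it. Arrays correlated at 0.989 to 0.994 within TH-MYCN+/+, 0.979 to 0.992 within wild type and 0.949 to 0.978 between genotypes. The spike-in scale used 7 of 10 E1A control probes. Their mean varied within each genotype, from 11.29 to 12.30 on TH-MYCN+/+ and from 11.45 to 12.77 on wild-type arrays. The linear model was tested on simulated data. Same-numbered arrays of both genotypes did not deviate together (r from -0.13 to 0.05), so numbers were not taken as pairs.

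Full values went to members called with an absolute log2 change of at least 1 and above background on every array of a genotype, and shorter values to the others above it on 6 or more arrays. The members, gene lists and tests were chosen with earlier results of these data known. Promoter windows are RefSeq sequences.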

Additional observations from a re-analysis of the deposited data

Results flagged for a closer look

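Among 78 sets of a member's values within a genotype, 8 held an array far from the others by Dixon's criterion. A set was included when at least 1 of its arrays was above background, so a lone bright array could both admit and flag it. Irx2, Pax5, Pou5f1, Pax9 and Six6 entered in this way. The count is therefore not set against a chance rate. Pou2af1 at 9.72 and Pax5 at 4.24 on wild-type replicate 3 stood apart from next values of 3.24 and 0.69. TH-MYCN+/+ replicate 3 held Pax9 at 5.71 (next value 2.08) and Six6, an eye field gene, at 4.60 (next value 1.04). Irx2 reached 5.60 on wild-type replicate 6 and Pou5f1 2.85 on wild-type replicate 1, while all other wild-type arrays held at most 1.65 and 1.67. Nkx2-9 was low, at 1.68, on TH-MYCN+/+ replicate 5, and Pou2f2 was low, at 6.97, on wild-type replicate 6, which did not bring the genotypes into overlap.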

How the results depend on the processing

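Falls depended on the scaling between arrays and rises less so. Members called lower numbered 18 after median centring, 3 as deposited, 0 after spike-in scaling, 4 when only genes above background on at least 6 arrays were tested, and 5 without the 4 arrays with markers of neighbouring tissue, against 8. Over all genes those settings gave 10728, 2746, 1579, 7178 and 6800 lower, against 7516. The condition on at least 6 arrays is a filter and not a scaling, and it removed Lhx8, Lhx9, Nkx2-5 and Prox2 from the test. The share of called members that were higher was 66.7%, and 45.5%, 57.1%, 87.5% and 100% after median centring, centring on the 75th percentile, as deposited and after spike-in scaling; over all genes it was 35.5%, and 22.0%, 31.0%, 66.8% and 78.2%. Dlx3 changed sign, to 0.11 as deposited and 0.27 after spike-in scaling. The cause of the dependence on scaling was not tested. After spike-in scaling the SE grew too, from 0.21 to 0.31 for Dlx1, 0.18 to 0.33 for Dlx2 and 0.14 to 0.28 for Prox1. A call lost there can thus come with a larger SE as well as a smaller difference. Leaving out each array in turn gave 12 to 18 members higher and 6 to 8 lower, and 3795 to 4138 genes higher and 7149 to 7690 lower. With the replicate number as a block, 15 members were higher and 8 lower, and 3674 genes were higher and 6863 lower. Meis1, Meis2, Pbx3, Prox1, Pou2f2, Pou3f2, Pou5f2, Lhx4, Six2, Nkx6-1 and Dlx5 were called higher under all 23 alternatives run. Without the arrays with neighbouring tissue Dlx3, Nkx2-3, Nkx2-5, Nkx3-2, Pou6f1 and Prox2 lost their calls. Their adjusted p in the main fit lay between 0.0190 and 0.0494. This setting has 2 fewer arrays of each genotype, and the part of that loss of power was not tested. Leaving out those arrays was chosen after seeing the data.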
